A study of Mus musculus with 6 samples.

Results

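The genes described here are 40 members of the WNT signalling pathway of the mouse, out of 21887 protein-coding genes in the RefSeq gene table of GRCm38.p6, the assembly of mm10. They were chosen by name and role, with earlier results of these data known. They comprise 18 WNT ligands, 12 receptors (10 Frizzled genes with Lrp5 and Lrp6), 7 secreted antagonists and 3 feedback genes. For each gene, the peaks of a ChIP-seq experiment with a summit within 50 kb of the gene interval were counted, and all 40 genes were found in the table. The experiment targeted GLI3R, the repressor form of the Hedgehog transcription factor GLI3. Its cells were differentiated towards cardiac progenitors out of mouse embryonic stem cells and harvested at day 6. All cells were of the line GLI3R-FTA on the A2Lox.cre strain. They were either given 500 ng/ml doxycycline for 24 h from day 5, which overexpresses the tagged GLI3R, or left untreated. Each condition had 2 streptavidin pull-down libraries and 1 input library, and the values analysed were 1 deposited peak list per condition, with 3640 peaks for doxycycline and 4379 for untreated cells. The peak lists hold no expression values, so the cell type could not be checked against its markers. The untreated cells carry the same inducible construct but were not given the doxycycline that overexpresses the tagged GLI3R. Whether the untreated peaks mark GLI3R binding was not tested.

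WNT proteins are secreted lipid-modified ligands that bind Frizzled receptors on the cell surface. In the canonical branch, Frizzled and the coreceptors LRP5 and LRP6 stop the destruction of beta-catenin, which then activates genes together with LEF and TCF factors. In the other branches, Frizzled and further coreceptors guide cell polarity and movement. In the heart field, canonical signalling is known to promote and later to restrain cardiac specification, and WNT11 and WNT5A are known ligands of the non-canonical branches there. Secreted antagonists of the SFRP and DKK families bind ligands or coreceptors, and AXIN2 is a target gene whose protein acts back on the pathway.

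Within 50 kb, 9 of the 40 members had a doxycycline summit (22.5%, exact 95% Clopper-Pearson interval 10.8 to 38.5) and 6 had an untreated one (15.0%, 5.71 to 29.8). Over all protein-coding genes the shares were 20.0% for the doxycycline list and 18.8% for the untreated list, so neither count of members stood far from its background. The roles differed in their counts. Ligands were near a summit in 4 of 18 cases with doxycycline and 1 of 18 without. Receptors were near one in 1 of 12 cases with doxycycline and 4 of 12 without. Antagonists gave 1 of 7 and 0 of 7, and the feedback genes Axin2, Lef1 and Cxxc5 gave 3 of 3 with doxycycline and 1 of 3 without. Members and roles were chosen with earlier results of these data known, so the 3 of 3 is not independent of those results. With 1 list per condition there was no spread between replicates, so no difference between the conditions or roles could be tested. These intervals cover counting error only and take genes as independent.

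**Figure D1:**
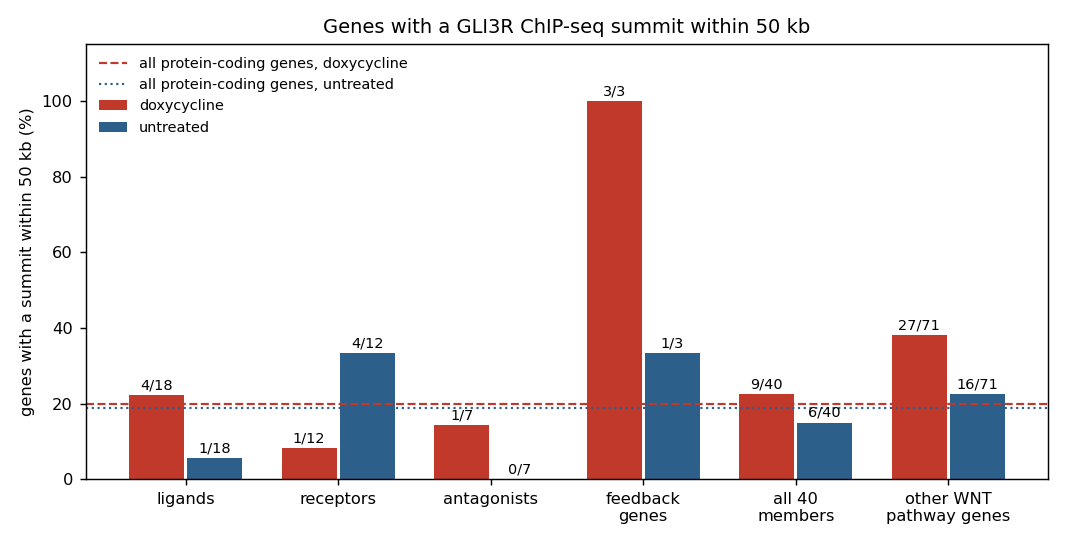
Share of genes (vertical axis, percent) with a summit within 50 kb in the doxycycline list (left bar of each pair) and in the untreated list (right bar), by role, with the number of genes above each bar; horizontal lines give the share of all protein-coding genes. The 40 members stand at 9 and 6 genes, close to the lines, while the 3 feedback genes all had a doxycycline summit. Members and roles were chosen with earlier results of these data known.

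The start sites nearest to a peak are shown as sequence, so that the letters around them can be read beside the peak values. The RefSeq promoter table (GRCm38.p6) lists 33 windows for 27 of the 40 members, each from 250 bases before to 50 after a start. None of the 33 was overlapped by a peak of either list. The 4 windows below, of 3 genes, are those whose start has a summit within 10 kb. All lie on the plus strand, at chr11:108920099-108920398 for Axin2, chr7:98834862-98835161 and chr7:98838595-98838894 for the first and second listed start of Wnt11, and chr3:131112541-131112840 for a start of Lef1. Capitals mark the letters CCACCC on either strand, the core of the GLI recognition sequence.
Axin2: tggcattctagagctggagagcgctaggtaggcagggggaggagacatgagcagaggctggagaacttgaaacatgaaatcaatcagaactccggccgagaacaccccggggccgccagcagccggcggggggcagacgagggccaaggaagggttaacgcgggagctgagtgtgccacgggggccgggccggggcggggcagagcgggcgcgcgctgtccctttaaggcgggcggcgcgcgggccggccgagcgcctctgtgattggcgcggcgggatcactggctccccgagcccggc
Wnt11 first start: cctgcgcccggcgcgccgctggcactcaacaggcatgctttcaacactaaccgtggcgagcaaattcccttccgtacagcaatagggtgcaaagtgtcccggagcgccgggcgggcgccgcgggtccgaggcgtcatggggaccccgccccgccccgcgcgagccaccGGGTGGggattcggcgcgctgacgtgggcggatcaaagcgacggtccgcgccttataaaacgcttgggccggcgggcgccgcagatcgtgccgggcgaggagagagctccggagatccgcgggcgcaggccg
Wnt11 second start: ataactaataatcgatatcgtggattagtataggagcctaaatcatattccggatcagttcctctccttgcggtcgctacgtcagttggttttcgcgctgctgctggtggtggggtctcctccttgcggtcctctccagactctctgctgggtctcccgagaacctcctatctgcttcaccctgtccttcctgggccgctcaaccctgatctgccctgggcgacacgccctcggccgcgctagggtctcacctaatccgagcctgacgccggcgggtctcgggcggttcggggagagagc
Lef1: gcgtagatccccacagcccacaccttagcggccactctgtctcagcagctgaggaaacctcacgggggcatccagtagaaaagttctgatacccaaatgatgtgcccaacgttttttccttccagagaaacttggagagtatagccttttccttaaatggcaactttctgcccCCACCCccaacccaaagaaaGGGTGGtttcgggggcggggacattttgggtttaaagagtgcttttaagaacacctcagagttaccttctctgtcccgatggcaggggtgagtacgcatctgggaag

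The full GLI sequence GACCACCCA, searched on both strands without mismatch, was in 0 of the 33 member windows and in 0.253% of all 32851 windows of the table. The core CCACCC, which every full sequence contains, was in 17 of the 33 (51.5%) and in 31.5% of all windows. By gene it was in 14 of the 27 members with a window, and the same share over all genes was not counted. Some Lef1 windows overlapped each other, so windows are not separate units. Member windows were not matched to the others for base composition, and the contrast was not tested. Of the sequences printed, the Lef1 window held the core in 2 places and the window of the first Wnt11 start in 1, while the Axin2 window and that of the second Wnt11 start held none. A match of so short a sequence describes the letters of the window, and the sequences of the peaks themselves were not analysed here.

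Among the ligands, the doxycycline list had 6 summits at 4 genes. Wnt5b, which encodes a ligand mostly assigned to the non-canonical branches, held 2 of them inside its 112 kb interval, and 0 untreated summits lay within 50 kb. The stronger (chromosome 6, 119530988 to 119531152) was enriched with a fold of 8.04 at a −log10 q of 7.95, had 10 fragments piled up at the summit, and lay 13.3 kb downstream of the first listed start. The other (119489826 to 119490034) had a fold of 6.95, a −log10 q of 6.03 and 9 fragments. Fold and −log10 q are the authors' values for each peak, and the pileup (fragments over the summit) was worked back from them. Fold is the enrichment over the local expectation, with the same constant added to pileup and expectation. It is therefore lower than the plain ratio of pileup to expectation. Positions below the start or above the end of a gene are those with lower and higher coordinates, whatever its strand. Upstream and downstream are used only for listed starts. The nearest untreated summit was 592 kb from Wnt5b.

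Wnt11, which encodes a non-canonical ligand needed for the outflow tract of the heart, also had 2 doxycycline summits. One lay 37.3 kb below the gene in an interval with no other protein-coding gene within 50 kb (chromosome 7, 98797710 to 98797893), with a fold of 7.97, a −log10 q of 7.89 and 10 fragments. The other lay inside the gene (98844651 to 98844791), 5.87 kb downstream of the second start printed above, and was among the weak peaks of its list with a fold of 4.39 and 5 fragments. Wnt11 was the member farthest from any untreated summit, at 920 kb.

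The other ligand genes near doxycycline summits had 1 each. Wnt4, a ligand of kidney and gonad development, had a summit 19.6 kb upstream of its listed start with a fold of 5.12 and 6 fragments. Wnt16, a ligand known from bone, had one 29.7 kb above its end with a fold of 6.26 and 8 fragments, but that summit lay inside the neighbouring gene Fam3c. The untreated list had 1 summit near a ligand, 34.9 kb from Wnt2, a ligand of early heart and lung mesoderm, with a fold of 4.72 and 5 fragments. Its nearest gene was St7, at 7.52 kb, and not Wnt2.

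The remaining 13 ligands had no summit of either list within 50 kb. They included the 4 pairs of ligand genes that lie side by side in the genome, Wnt1 with Wnt10b, Wnt3 with Wnt9b, Wnt3a with Wnt9a, and Wnt6 with Wnt10a. Of these pairs, Wnt3a and Wnt9a were the closest to a doxycycline summit, at 51.7 kb from Wnt9a and so just outside the limit. Wnt1 and Wnt10b were the farthest from the doxycycline list, with doxycycline summits 653 and 669 kb away and untreated ones 350.5 and 366 kb away. Wnt5a, the other non-canonical ligand of the heart field, was 426 kb from a doxycycline and 888 kb from an untreated summit. Wnt2b, Wnt7a, Wnt7b and Wnt8a lay 122 to 591 kb from a doxycycline summit and 184 to 878 kb from an untreated one.

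**Figure D2:**
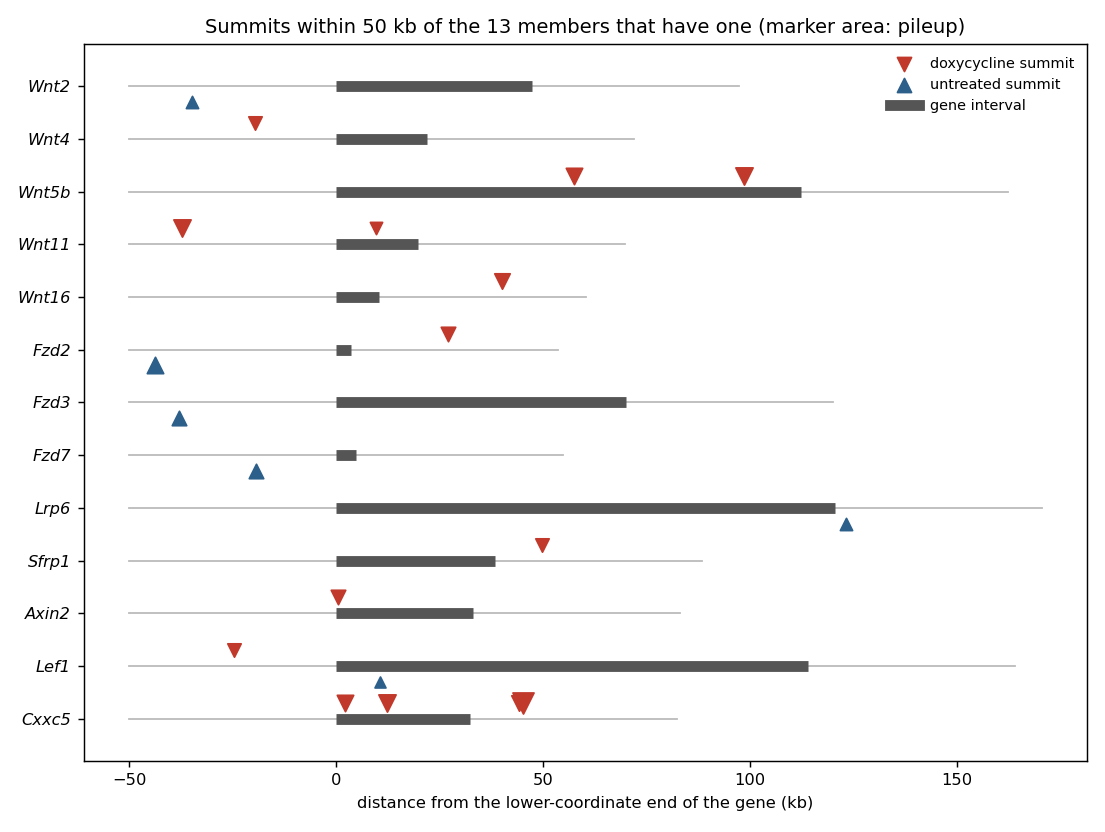
Position of each summit (triangles) relative to the gene interval (thick bar) for the 13 members with a summit within 50 kb, in kb from the end of the gene with the lower coordinate; doxycycline summits point down from above the line, untreated summits point up from below it, and the marker area grows with the pileup. Cxxc5 carries 5 doxycycline summits and Fzd2 and Lef1 have summits of both lists at separate positions.

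The receptors had more genes near untreated than near doxycycline summits. Fzd2, a Frizzled gene active in embryonic mesenchyme, was the 1 receptor with a doxycycline summit, 23.3 kb above its end (chromosome 11, 102631317 to 102631470), with a fold of 5.56 and 7 fragments. It also had an untreated summit, 43.8 kb below its start (102560571 to 102560738), with a fold of 7.86, a −log10 q of 7.43 and 9 fragments. This was the strongest untreated peak near any member, ranked 132 of 4379, but its nearest gene was Gpatch8, at 4.24 kb. The pair of Fzd2 summits lay 70.8 kb apart on opposite sides of the gene.

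The other receptors near a summit were in the untreated list. Fzd7, a Frizzled gene of stem cells and early mesoderm, had an untreated summit 19.5 kb upstream of its listed start with a fold of 6.05 and 7 fragments. No other protein-coding gene lay within 50 kb of that summit. Fzd3, known for its part in axon guidance, had one 37.9 kb away with a fold of 6.29 and 7 fragments, but Extl3 was nearer, at 4.62 kb. Lrp6, the canonical coreceptor, had one 2.75 kb above its higher-coordinate end with a fold of 4.72 and 5 fragments. Lrp6 had no listed start, so that summit was not placed upstream or downstream of one. In the doxycycline list the nearest summits to Fzd7, Fzd3 and Lrp6 were 73.1, 599 and 335 kb away. Lrp5, the second coreceptor, had none within 50 kb in either list. Just outside the limit, Fzd4 and Fzd5 lay 50.6 and 55.2 kb from a doxycycline summit, and 481 and 480 kb from an untreated one. With the limit at 100 kb the receptor count was therefore 5 of 12 for doxycycline (beside 31.3% of all genes) and 4 of 12 for untreated cells (30.2%), so the order of the conditions among the receptors depended on the distance allowed.

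Of the antagonists, Sfrp1 had the single summit within 50 kb. Its protein is a secreted decoy with a Frizzled-like domain that binds WNT ligands. The doxycycline summit lay 11.4 kb above the end of Sfrp1 (chromosome 8, 23460988 to 23461143), with a fold of 5.12, a −log10 q of 3.07 and 6 fragments, and no other protein-coding gene was within 50 kb. The other antagonists, Sfrp2, Sfrp5, Frzb, Dkk1, Dkk2 and Dkk3, had none in either list. Dkk1, the inhibitor of LRP coreceptors, lay 122 kb from a doxycycline and 93 kb from an untreated summit. Sfrp2 was the antagonist closest to the limit in the untreated list, at 57.8 kb. Antagonists within 100 kb of a summit numbered 1 of 7 with doxycycline and 3 of 7 without, beside 31.3% and 30.2% of all genes.

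The feedback genes carried 7 of the 15 doxycycline summits near members. Cxxc5 encodes a zinc finger protein that binds Dishevelled and dampens canonical signalling, and it had 5 doxycycline and 0 untreated summits within 50 kb. Over all protein-coding genes, 9 genes (0.0411%) had 5 or more doxycycline summits in reach and 18 genes (0.0822%) as many untreated ones. Because members were chosen with earlier results of these data known, this share does not measure how unexpected Cxxc5 is. The summits of Cxxc5 spanned 43.2 kb on chromosome 18. Inside the gene they lay at 35831518 to 35831692, with a fold of 7.31 and 9 fragments, and at 35841485 to 35841802, with a fold of 8.04 and 10 fragments.

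The remaining 3 summits of Cxxc5 formed a group between 11.8 and 13.1 kb above its end, and Cxxc5 was their nearest gene, with no other protein-coding gene within 50 kb of any of them. The middle peak of the group (35874347 to 35874622) was the strongest of all doxycycline peaks near members, with a fold of 9.57, a −log10 q of 11.6 and 15 fragments. It ranked 259 of 3640 by −log10 q. Its neighbours were weaker, at a fold of 6.01 with 8 fragments and a fold of 4.12 with 5. The smallest gap between summits was 0.33 kb. The local expectation at these 3 peaks was 0.457 to 0.673 fragments, against 0.368 as the most frequent value of the list. The nearest untreated summit to Cxxc5 was 290.4 kb away.

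Axin2, the scaffold of the beta-catenin destruction complex and a widely used readout of canonical signalling, had 1 doxycycline summit, inside its annotated interval (chromosome 11, 108918288 to 108918485). It lay 2.0 kb upstream of the start whose sequence is printed above, which made it the summit closest to a listed start among the members in the promoter table. Its fold was 5.85, its −log10 q 4.17 and its pileup 7 fragments. No other protein-coding gene was within 50 kb, and the nearest untreated summit was 170 kb from the gene.

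Lef1, the nuclear partner of beta-catenin, had a summit in each list, at different places 35.4 kb apart. The doxycycline summit lay 24.8 kb upstream of the first listed start (chromosome 3, 131085437 to 131085583), with a fold of 5.12 and 6 fragments. The untreated summit lay inside the gene (131120780 to 131120923), 8.06 kb downstream of the start printed above, with a fold of 3.93 and 4 fragments, the smallest pileup in that list. The doxycycline list begins at 5 fragments and the untreated list at 4, so no doxycycline peak had a pileup as small as this one.

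Taking the members' peaks as a set, 15 doxycycline and 6 untreated peaks lay within 50 kb, and 0 of either overlapped a peak of the other list. Over the whole lists, 73 of 3640 doxycycline peaks and 75 of 4379 untreated peaks did, so few peaks were shared anywhere. Fzd2 and Lef1 were the 2 members with summits of both lists, against 4.97% of all protein-coding genes. A doxycycline summit without an untreated one was found at 7 members (15.1% of all genes) and the reverse at 4 (13.9%). The member itself was the nearest protein-coding gene, or one that contains the summit, for 14 of the 15 doxycycline peaks and 3 of the 6 untreated ones. Counted this way, 8 members with doxycycline and 3 without had a summit within 50 kb, beside 9.82% and 10.2% of all genes. Inside the member gene lay 6 of the 15 and 1 of the 6. By gene this was 4 members with doxycycline and 1 without, beside 6.16% and 5.96% of all genes. Within 10 kb there were 4 members (Wnt5b, Wnt11, Axin2 and Cxxc5) and 2 (Lrp6 and Lef1), beside 9.55% and 8.60% of all genes.

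By −log10 q, the peaks near members ranked from 259 to 3607 of 3640 with doxycycline and from 132 to 2855 of 4379 without. Their median folds were above those of the whole lists. The folds of the doxycycline peaks ran from 4.12 to 9.57 with a median of 6.01, beside 5.50 over the whole list, and their pileups from 5 to 15 fragments. The folds of the untreated peaks ran from 3.93 to 7.86 with a median of 5.38, beside 4.72, and their pileups from 4 to 9. With a −log10 q of at least 5, Wnt5b, Wnt11 and Cxxc5 were the 3 members left with doxycycline, beside 8.42% of all genes, and Fzd2 the 1 left without, beside 1.97%. Fold and −log10 q are ranked here within each list, since the lists were called separately.

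**Figure D3:**
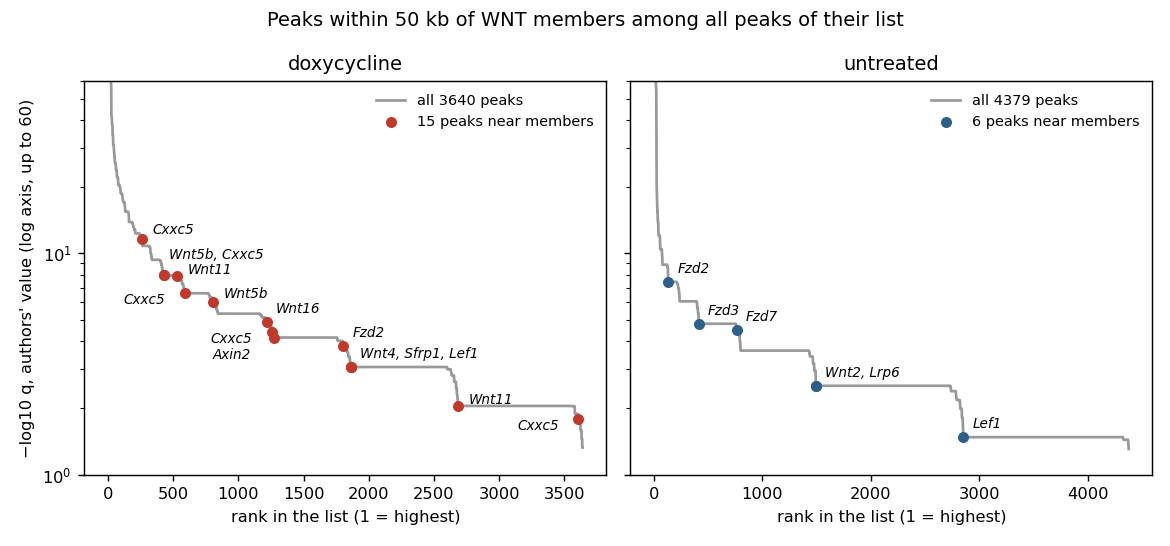
Peaks of each list in order of the authors' −log10 q (grey line; vertical log axis shown up to 60, horizontal axis the rank in the list), with the peaks within 50 kb of a member as labelled points. Doxycycline is on the left, with Cxxc5 highest at 11.6, and untreated on the right, with Fzd2 highest at 7.43.

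Counted by peaks and not by genes, the conditions stood further apart. The windows of the 40 members, each the gene with 50 kb on both sides, covered 4.97 Mb once overlaps were joined. They held 3.02 doxycycline peaks and 1.21 untreated peaks per Mb. The windows of all protein-coding genes held 1.53 and 1.62 per Mb. Without Cxxc5 the members' windows held 2.07 and 1.24 per Mb. The gene with several peaks thus accounted for part of the doxycycline value. Members with 2 or more doxycycline summits were Wnt5b, Wnt11 and Cxxc5 (3 of 40, beside 3.56% of all genes), and 0 members had 2 or more untreated summits (2.74% of all genes). The members' genes were of median length 24.8 kb, against 17.2 kb over all genes, so their windows were slightly wider.

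Distances to the nearest summit need no limit. Their median over the 40 members was 138 kb to a doxycycline and 248 kb to an untreated summit, against 204 and 211 kb over all genes. The doxycycline summit was the nearer one for 24 of the 40 members and the untreated one for 16. Of the 21631 genes with peaks of both lists on their chromosome, 10630 (49.1%) had the doxycycline summit nearer. The untreated summit was nearer for 10686 of them, and 315 were ties. Among the ligands the medians were 116 and 298 kb, among the receptors 163 and 339 kb, and among the antagonists 214 and 174 kb. The largest distances were 669 kb for Wnt10b in the doxycycline list and 920 kb for Wnt11 in the untreated list. No member stood between 29.7 and 50.6 kb from its nearest doxycycline summit. In the untreated list none stood between 43.8 kb (Fzd2) and 57.8 kb (Sfrp2).

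**Figure D4:**
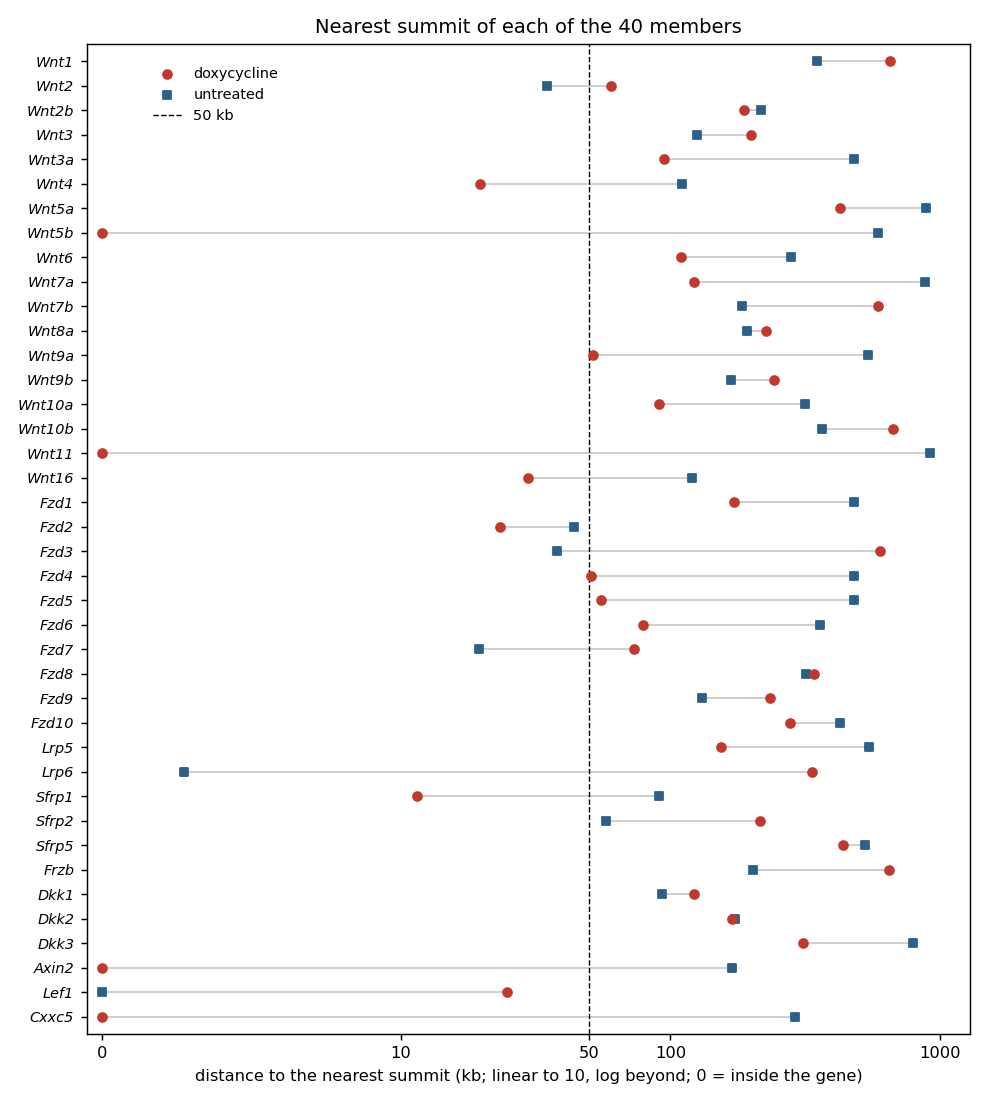
Distance from each of the 40 members to its nearest doxycycline summit (circles) and untreated summit (squares), in kb on an axis that is linear to 10 and logarithmic beyond, with 0 inside the gene; the dashed line marks 50 kb. Wnt5b, Wnt11, Axin2 and Cxxc5 have a doxycycline summit inside the gene and an untreated one over 100 kb away, and Lef1 has an untreated summit inside.

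The rest of the pathway was represented by 71 further genes, from ligand secretion to nuclear cofactors. With doxycycline 27 of them (38.0%) and without it 16 (22.5%) were within 50 kb of a summit, beside the background of 20.0% and 18.8%. Nuclear partners and targets had 10 of 14 with doxycycline and 5 of 14 without, signal transducers 6 of 15 and 4 of 15, and intracellular inhibitors 3 of 7 and 0 of 7. Coreceptors and planar polarity genes had 3 of 13 and 5 of 13, the potentiators and their receptors 3 of 9 and 1 of 9, further inhibitors at the cell surface 1 of 10 and 1 of 10, and secretion genes 1 of 3 and 0 of 3. The median length of these genes was 36.9 kb, longer than that of the members or of all genes, and a longer gene has a wider window. The part of length in the count was not tested. This list too was drawn up with earlier results of these data known, so its shares are not an independent comparison with the background.

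The 3 strongest doxycycline peaks near these genes reached higher folds than any near a member, where Cxxc5 had the highest at 9.57. A peak 20.2 kb from Draxin, which encodes a secreted axon guidance protein that also inhibits canonical signalling, had a fold of 11.0 and 14 fragments, and lay inside Fbxo6. Vangl1, a membrane protein of planar cell polarity, held one inside the gene at 10.7-fold. Bcl9, a cofactor of beta-catenin, had one 45.0 kb away at 10.6-fold, nearer to Acp6, and after these 3 came Rspo4, which encodes an R-spondin that amplifies WNT signals, with one 41.5 kb away at 9.04-fold and inside Angpt4. The next 7 peaks were tied at 6.58-fold with 8 fragments each. Of these, 1 was a second peak near Bcl9, 22.4 kb away and again nearer to Acp6, and 2 lay near Sp5, a zinc finger target of WNT, at 1.44 and 18.4 kb. The others were near T (Brachyury, the mesoderm transcription factor and a WNT target), Nkd2 (a Dishevelled-binding inhibitor, with the summit inside Slc12a7), Ror2 (a WNT5A receptor) and Tle1 (a Groucho corepressor).

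In the untreated list the strongest peak near these genes lay 22.6 kb from Tcf7l1, which encodes a repressing TCF factor, at 7.86-fold and 9 fragments. Celsr2, a planar polarity cadherin, Bcl9l, a cofactor of beta-catenin, and Tle1 followed at 6.29-fold. The summit near Celsr2 lay inside Mybphl and that near Bcl9l was nearer to Cxcr5. Rnf43, a ubiquitin ligase that removes Frizzled from the surface, had one at 6.05-fold and 8.72 kb away, inside Hsf5, and Ctnnb1, the gene of beta-catenin itself, one at 5.50-fold and 5.04 kb away. Peaks near Ror2, Sp8 and Wif1, a secreted WNT inhibitor, were tied at 4.72-fold with a second peak near Bcl9l, which lay inside Cxcr5. The Tle1 peak lay inside the gene and was in both lists at nearly the same interval (chromosome 4, 72170288 to 72170424 with doxycycline, 72170286 to 72170437 without), at 6.58-fold and 6.29-fold.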

How the data were processed

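GLI3R ChIP-seq was done on 6 libraries, 2 pull-downs and 1 input per condition, and the sample titles gave the groups; the titles say GLI3R, where a treatment note in the labels says GLI1. The submitters' processing notes name MACS2 2.1.1, Bowtie2 2.3.2 and SAMtools 1.5 with mm10; their settings and any pooling of pull-downs were not given in the sources used here. The authors deposited 1 peak list per condition, with fold enrichment (a ratio at the summit), −log10 p and −log10 q for each peak.

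Where several rows gave the same interval, the row with the best summit stood for the peak, which took 3725 doxycycline rows to 3640 and 4428 untreated rows to 4379. Pileups were worked back from fold and −log10 p as Poisson upper tails, and matched within 0.01 for 99.8% of the peaks of each list and for all peaks near members. Library totals were not analysed here. Most peaks rest on few fragments (median 7 and 5), so small differences between peaks lie within counting error.

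Distances run from the summit to the gene interval of the table (0 inside); coordinates are counted from 1. The table gives no exons. Start sites come from the RefSeq promoter table. Overlap was counted from 1 bp. Members and gene lists were chosen with earlier results of these data known. Every member with a summit within 50 kb is named with its peaks, and of the other pathway genes up to 8 per condition by −log10 q, with ties added. A planned motif search within peaks needs a genome sequence and was not run. The counting and pileup steps were tested on simulated data. Python 3.11.15, matplotlib 3.10.9, scipy 1.17.1, pandas 2.3.3 and numpy 2.4.6 were used.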

Additional observations from a re-analysis of the deposited data

How the results depend on the processing

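The counts were repeated under 10 alternatives and 2 added later. Within 10 kb the members numbered 4 with doxycycline and 2 untreated (difference 2) and the other pathway genes with doxycycline 15. Within 100 kb there were 17 members with doxycycline (31.3% of all genes) against 9 untreated (30.2%), a difference of 8. With each summit given to its nearest gene at any distance, which also drops the 50 kb limit, the members numbered 12 with doxycycline (12.4% of all genes) and 6 untreated (13.3%), a difference of 6. With the nearest gene and the 50 kb limit kept they numbered 8 with doxycycline and 3 untreated, a difference of 5, and the other pathway genes 17 with doxycycline and 10 untreated. With −log10 q of at least 5 the members numbered 3 with doxycycline and 1 untreated (difference 2), and the other pathway genes 10 with doxycycline and 1 untreated. Among the top 1000 peaks of each list the members numbered 3 with doxycycline (7.03% of all genes) and 3 untreated (4.76%), a difference of 0, and the other pathway genes 8 with doxycycline and 5 untreated. With a pileup of at least 5 fragments the members' difference was 4, against 3 at the authors' threshold, and the other pathway genes with an untreated summit numbered 9 (12.7% of all genes), against 16. A stricter limit on distance, rank, pileup or −log10 q leaves fewer peaks by construction. Keeping every deposited row, using any base of a peak, leaving out shared peaks and counting neighbouring genes once kept each of the 4 counts within 1.5 times its value and the difference at 3. The last 2 of these could not change the member counts. None of the members' peaks was shared, and no pair of neighbouring members had a summit within 50 kb. The alternatives with the nearest gene within 50 kb and without Cxxc5 were chosen after seeing the data. No paired analysis was possible because the deposited lists give no values per replicate, and for the same reason no replicate could be left out.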
